A study of Xenopus tropicalis with 24 samples.

Results

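The T-box genes eomes, t and vegt were examined by name in every deposited list from early Xenopus tropicalis embryos, 3 of the 8626 genes named in the transcript table or in a peak list. Wild-type whole embryos were taken at Nieuwkoop and Faber stages 8, 9 and 10.5, which run from the blastula to the start of gastrulation. ChIP-seq, which sequences DNA pulled down with an antibody, located Smad2/3 and 4 histone modifications in pools of 250 embryos, and tags from the 3′ ends of 400 ng of mRNA per library gave transcript levels (3′ RNA-seq). At stage 9, RNA, H3K27ac and H3K4me1 were also profiled in wild-type whole embryos in which Nodal signalling was inhibited from the 4-cell stage with SB431542, an inhibitor of the receptor kinases used by Nodal and activin. Each of the 24 groups was 1 listed library, so no difference below has a replicate check or a p-value; unmatched columns of the RNA table that may be second runs or replicates were not used. All intervals are exact 95% intervals and cover counting error only.

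T-box factors bind DNA through a shared domain, and those encoded by eomes, t and vegt switch on genes of the mesoderm and endoderm. vegt is stored as maternal RNA in the vegetal part of the Xenopus egg and is needed for endoderm and for transcription of Nodal ligands. In Xenopus laevis its maternal and zygotic transcripts differ at the first exon. eomes acts early in mesoderm and endoderm, and t encodes Brachyury, the factor of notochord and posterior mesoderm. Nodal signals act through Smad2/3, which bind DNA with partner factors. Of the histone marks, H3K4me3 is typical of promoters, H3K4me1 of enhancers, H3K27ac of regulatory DNA in use and H3K27me3 of genes silenced by Polycomb.

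All 3 genes lay on the plus strand of the xenTro2 assembly, with annotated starts at position 619186 of scaffold 26 for eomes, 292648 of scaffold 432 for t and 4630230 of scaffold 12 for vegt. A peak was assigned to a gene when the deposited annotation named that gene as nearest and gave a distance of at most 50 kb from its transcription start site (TSS). By this rule the 3 genes held 89 peaks in 17 lists: 26 for eomes in 11 lists, 37 for t in 9 lists and 26 for vegt in 9 lists. A further 36 peaks of eomes and 2 of t lay beyond 50 kb. The peaks of t nearest to that limit were a Smad2/3 site centred 49.97 kb upstream, inside it, and peaks of H3K27ac at stage 8 and H3K4me1 at stage 9 centred 50.2 and 50.3 kb upstream, outside it. For eomes an H3K27ac peak of stage 10.5 centred 49.5 kb upstream was inside.

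The RNA libraries held 4973283, 6659554 and 8030203 tags in regions that name a gene at stages 8, 9 and 10.5, and 4656275 under inhibition. Counts were scaled to these totals (CPM). Of the markers listed to check the tissue, summed levels ranged from 2927 to 6536 CPM for 7 of 12 ectoderm genes and from 969 to 1474 CPM for 6 of 8 maternal oocyte genes. The 1 gene of 12 markers of later cell types that was in the table stayed between 16.2 and 32.0 CPM. In whole embryos, fewer cells of a type and less RNA per cell cannot be told apart.

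Transcripts of eomes and t were at or near 0 through stage 9 and present at stage 10.5, whereas vegt was present at every stage. eomes had 0 tags at stage 8, 0 at stage 9, 605 at stage 10.5 and 3 in inhibited stage 9 embryos. Its level at stage 10.5 was 75.3 CPM (69.5 to 81.6), and 3 tags, taken as the floor for a count of 0, correspond to 0.603 CPM at stage 8 and 0.450 CPM at stage 9. Only the stage 10.5 library was high, and its interval did not overlap that of any other library. eomes was at least 167-fold higher at stage 10.5 than at stage 9 and at least 125-fold higher than at stage 8. On the log2(CPM + 1) scale the ratio to stage 9 was 6.25, and 35 of 5045 gene labels tested had a larger one.

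t had 0 tags at stage 8, 1 at stage 9, 1869 at stage 10.5 and 0 in inhibited embryos. Its level at stage 10.5 was 233 CPM (222 to 244), against 0.150 CPM at stage 9. The ratio of these levels was 1550 (278 to 61254), resting on 1 tag at stage 9, and t was at least 386-fold higher at stage 10.5 than at stage 8. Its log2 ratio of 7.67 to stage 9 was exceeded by 6 of 5045 labels. The order of the summed levels at stage 10.5 was vegt, t, eomes, and no neighbours in that order had overlapping intervals. By the region with most tags alone, t was higher than vegt at stage 10.5, with 210 against 200 CPM, and eomes had 71.1 CPM. The order of vegt and t therefore depends on which regions are summed, which the intervals do not cover. One tag comes from one transcript end in this assay, so levels are not divided by gene length.

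vegt had 564 tags at stage 8, 664 at stage 9, 2362 at stage 10.5 and 254 in inhibited stage 9 embryos. These were levels of 113 CPM (104 to 123), 99.7 CPM (92.3 to 108), 294 CPM (282 to 306) and 54.6 CPM (48.0 to 61.7). The highest library was stage 10.5 and the lowest the inhibited one, while the intervals of stages 8 and 9 overlapped. The level at stage 10.5 was 2.95 times that at stage 9 (2.71 to 3.22) and 2.59 times that at stage 8 (2.37 to 2.85). At 0.879 times the stage 8 level (0.785 to 0.985), stage 9 was slightly lower, but this sign turned with the scaling (log2 −0.18 here, 0.32 with TMM and 0.34 with the median of ratios). Relative to the median label, whose log2 ratio was −0.45 here and 0.08 with TMM, vegt stood 0.27 and 0.24 higher at stage 9.

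All 3 genes passed 2-fold with at least 10 CPM between stages 9 and 10.5, as did 29% of 5045 labels in that direction, and between stages 8 and 10.5, as did 14.7% of 5231 labels. eomes and t reached 10 CPM at stage 10.5 alone, so by this rule they could not have been called lower, and nothing is read from their count. None of them passed 2-fold between stages 8 and 9, where 7.29% of labels were higher and 28.8% lower. TMM moved the share of higher labels among those called from 62.8% to 49.9% for stage 10.5 over 9, from 37.4% to 51.1% for stage 10.5 over 8 and from 20.2% to 54.3% for stage 9 over 8. The vegt ratio relative to the median label was 1.26 on the log2 scale and 1.27 with TMM. Stage 10.5 also carries an alignment date that differs from stages 8 and 9. In comparisons with stage 10.5, stage and any batch therefore cannot be told apart.

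**Figure D1:**
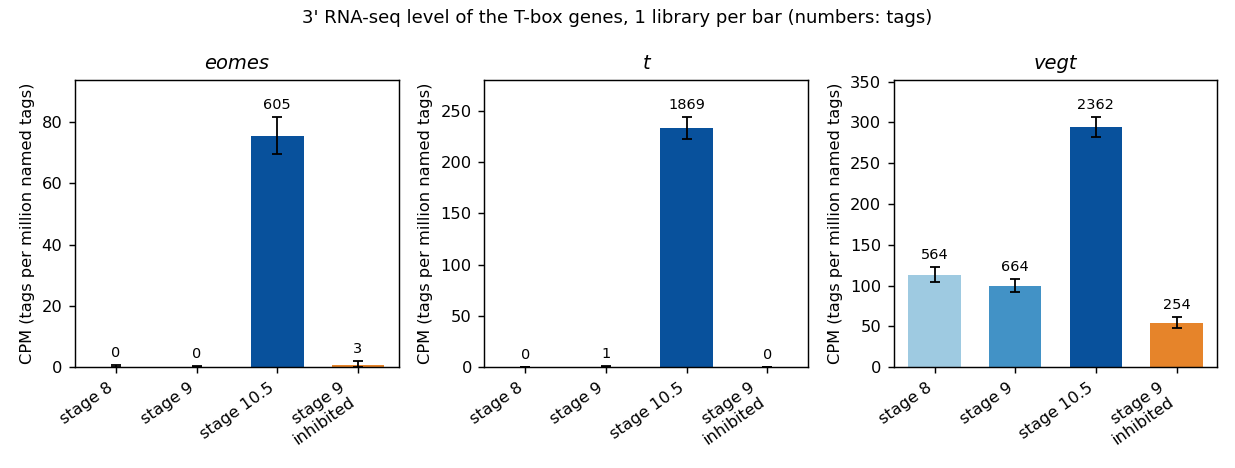
Level of eomes, t and vegt in each RNA library in CPM (tags scaled to the total in named regions), 1 library per bar, with the tag count above it. Lines are exact 95% Poisson intervals, or run up to 3 tags where the count was 0; eomes and t rise from the baseline at stage 10.5 only, and vegt is present in all 4 libraries.

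Under Nodal inhibition the comparison could be made only for vegt, because eomes and t were at or below 3 tags in both stage 9 libraries. vegt was 1.83-fold lower in inhibited than in untreated stage 9 embryos (1.58 to 2.12), with 54.6 against 99.7 CPM. This did not reach 2-fold (log2 −0.86), a change that 16.7% of 4819 labels reached downwards. Of those labels 936 had a lower ratio than vegt. Among labels called, 55.1% were higher under inhibition, and 43.2% with the median of ratios as scaling. With that scaling the log2 ratio of vegt was −1.05, past 2-fold, and relative to the median label it was −1.07 here and −1.06 there. The 2 libraries also carry alignment dates that differ, so treatment and any batch cannot be told apart. The inhibited level was lower than at stage 8 as well.

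The tags of each gene came mainly from its 3′ end. For eomes, 571 of the 605 tags at stage 10.5 fell in a region at 625575 to 625707 on scaffold 26, 6.39 kb downstream of the TSS, and the other 34 in a reverse-oriented region 0.748 kb downstream. For t, 1684 of 1869 tags fell at 299384 to 299611 on scaffold 432, 6.74 kb downstream of the TSS. The other 4 regions of t, with 37 to 53 tags each at stage 10.5, were at 0 in the other libraries. A region without a gene label just past it, at 299686 to 299806, held 0, 0, 93 and 0 tags at stages 8, 9 and 10.5 and under inhibition. t2, a second Brachyury gene listed in RefSeq as tbxt.2, starts 35.7 kb downstream of t and had 0, 0, 48 and 0 tags in the same order. Whether tags were shared between t and t2 was not tested.

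vegt had 12 regions, starting 6.24 to 11.3 kb downstream of the TSS, and they did not move together. The region with most tags, at 4640885 to 4641607 on scaffold 12, held 301 tags at stage 8, 392 at stage 9, 1610 at stage 10.5 and 154 under inhibition. A region at 4636465 to 4636548, 6.24 kb downstream of the TSS, held 0, 0, 35 and 0 tags. Another at 4639199 to 4639283 went the other way, with 51 tags at stage 8, 2 at stage 9, 17 at stage 10.5 and 2 under inhibition. The reverse-oriented regions of vegt, 5 of 12, held 19.1% of its tags at stage 10.5, against 5.62% for eomes and 7.28% for t. Strand is given as ignored, yet each region has an orientation. Whether reads of the opposite strand were counted apart is not stated. The reverse-oriented region at 4641511 to 4641647 overlaps the one with most tags, so some tags may be counted in both and enter the vegt sum again.

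The time courses were set beside those of 4910 labels over the 4 RNA libraries, by Euclidean distance between centred log2(CPM + 1) profiles, which is a description of 1 library per point. The nearest to eomes were pkdcc, a secreted kinase gene (distance 0.0756), irx2, a homeobox gene (0.308), and ventx3.2, a ventral homeobox gene (0.340). The nearest to t was cer1, a secreted antagonist of Nodal, BMP and Wnt (0.196). The nearest to vegt were fbp1, a gluconeogenic enzyme (0.127), and rchy1, a ubiquitin ligase (0.227). By this distance members of the T-box trio were less alike: t was 77th in order from eomes, at a distance of 1.69, and vegt was 326th from eomes and 275th from t. The profiles were centred but not scaled, so the distance also counts the height of a rise. Both eomes and t exceeded 3 tags at stage 10.5 alone, at 75.3 and 233 CPM.

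No Smad2/3 peak was assigned to any of the 3 genes at stage 8 or 9, whereas each had exactly 4 at stage 10.5. Stage 8 and stage 9 lists named 1.62% and 3.52% of the 8164 genes with any peak, and the stage 10.5 list named 5.32%. At least 4 sites within 50 kb were found for 0.245% of genes, 20 in all, among them the homeobox gene not, the Wnt ligand gene wnt11 and the FGF receptor gene fgfr4. Headers mark the Smad2/3 lists of stages 9 and 10.5 as stricter, and the thresholds are not stated. Sites missing at the earlier stages were not called in those lists, which does not show them to be unbound.

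The 12 sites spread differently around the 3 genes. The 4 of eomes lay on scaffold 26 at 610630 to 610877, 614274 to 614796, 616027 to 616266 and 627305 to 627886, which is 8.43, 4.65 and 3.04 kb upstream and 8.41 kb downstream of the TSS. The 4 of t lay upstream on scaffold 432, at 242417 to 242937, 271383 to 271816, 275829 to 276394 and 288518 to 288921, at 49.97, 21.0, 16.5 and 3.93 kb from the TSS. The 4 of vegt lay on scaffold 12 at 4629565 to 4629960, 0.468 kb upstream of the TSS, and at 4631606 to 4631957, 4633806 to 4634494 and 4644606 to 4645046, which is 1.55, 3.92 and 14.6 kb downstream. vegt thus had the only site within 1 kb of a TSS, and 8 of the 12 lay within 10 kb.

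By the authors' score, whose scale is not stated and which serves only to rank within the list, the vegt and t sites stood high and the eomes sites were split. The site of vegt at 3.92 kb had a score of 75.1 and rank 24 of 1024, and the far upstream site of t had 71.6 and rank 26. The other sites of vegt ranked 50, 65 and 237, and those of t 189, 270 and 458. The eomes site at 4.65 kb upstream ranked 73 with a score of 47.5, but its other sites ranked 949, 963 and 1009 with scores from 8.62 to 10.7. Of the 12 sites, 9 scored above the list median of 18.6 and 5 were among the 100 highest. They were 240 to 689 bp wide with a GC content of 34.9 to 44.2%, a median of 40.3% beside 40.3% for all sites.

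**Figure D2:**
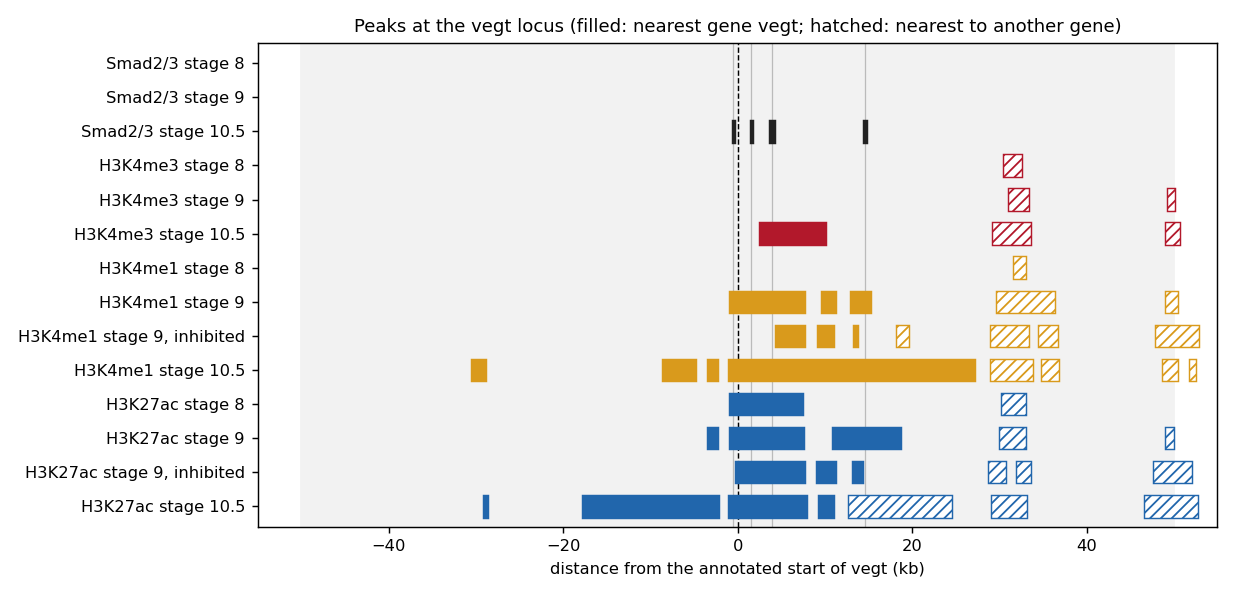
Peaks around vegt in each list, as distance from the annotated start in kb (dashed line); filled boxes name vegt as nearest gene, hatched boxes another gene, grey lines mark the 4 Smad2/3 sites of stage 10.5 and shading the 50 kb window. The H3K4me3 peak starts 2.49 kb downstream of the start, and inhibited embryos have no H3K4me1 peak over the start.

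All 3 loci had called histone peaks at stage 8, when eomes and t had 0 tags. H3K27ac was called at all 3 loci already at stage 8, as at 42.1% of genes, with 1 peak each. At stage 9 eomes had 1, t 5 and vegt 3 (53.9% of genes had any), and at stage 10.5 they had 4, 5 and 4 (78.4%). These stage 10.5 counts were 1, 1 and 2 within 10 kb and 2, 3 and 2 among peaks at or above the list's median score. The stage 8 peak of eomes was 15.1 kb wide, the 51st widest of 8078, and covered the TSS, and that of vegt was 8.49 kb wide and also covered the TSS. The stage 8 peak of t did not lie at the gene: it was 2.19 kb wide and centred 44.5 kb upstream, with a score of 4 that ranked 7088. At 24.6% of genes an H3K27ac peak covered the TSS at stage 8.

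Acetylated length grew at each stage. Peaks of eomes summed to 15.1, 17.6 and 28.5 kb at stages 8, 9 and 10.5, those of t to 2.19, 29.4 and 56.3 kb and those of vegt to 8.49, 17.8 and 27.1 kb. These sums depend on the assignment rule. That of t at stage 8 leaves out a 3.62 kb peak centred 50.2 kb upstream. That of vegt at stage 10.5 leaves out a peak from 12.6 to 24.5 kb downstream, which names crkl and covers the vegt Smad2/3 site at 14.6 kb. The whole lists grew too, from 21.6 to 34.6 and 97.1 Mb. At stage 9 the t locus had new peaks, among them 1 over the TSS and others at 16.0 and 6.23 kb upstream, and at stage 10.5 a single peak of 24.5 kb covered its far upstream site. All 3 stage 8 peaks overlapped a stage 9 peak and all 9 stage 9 peaks a stage 10.5 peak, against 74.5% and 79.2% of all peaks.

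H3K4me1 followed a different order. At stage 8 only eomes had it, in 2 peaks of 2.91 and 0.903 kb at the TSS and 2.77 kb downstream, while t and vegt had none; 44.3% of genes had a peak then. By stage 9, when 86.9% of genes had one, eomes had 3 peaks, t 5 and vegt 3, and all 3 TSSs were covered, as were 64.1% of all TSSs. At stage 10.5 they had 3, 8 and 4 peaks, and 91.8% of genes had one. The stage 10.5 library was in a different multiplex pool from stages 8 and 9, so stage and pool cannot be told apart. The stage 9 peak over the eomes TSS was 9.98 kb wide with a score of 118, rank 234 of 25975, whereas those over the TSSs of t and vegt ranked 2709 and 8757. Summed length went from 3.81 to 15.2 and 19.8 kb for eomes, from 0 to 9.97 and 32.6 kb for t and from 0 to 13.0 and 35.3 kb for vegt. The whole H3K4me1 lists grew as well, from 7.53 to 59.0 and 92.5 Mb. The stage 9 sum of t leaves out a 2.48 kb peak centred 50.3 kb upstream. That of vegt at stage 10.5 includes a 28.3 kb peak reaching 27.3 kb downstream, over RNA regions that name crkl. Both stage 8 peaks overlapped a stage 9 peak, beside 94.4% of all, and all 11 stage 9 peaks a stage 10.5 peak, beside 79.3%.

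H3K4me3, the promoter mark, also came first at eomes. None of the 3 genes had a peak at stage 8, as 13.8% of genes did. At stage 9 only eomes had one, at 618075 to 622687 over its TSS, with rank 406 of 6839 at a stage when eomes had 0 tags; 52.2% of genes had a peak then and 38.4% had one over the TSS. It overlapped the stage 10.5 peak, as did 93.7% of stage 9 peaks. At stage 10.5, when 81.4% of genes had a peak and 65.2% had one over the TSS, eomes had a peak of 7.96 kb and t one of 4.30 kb, both over the TSS. vegt had an H3K4me3 peak only at stage 10.5, 7.66 kb wide at 4632720 to 4640379, which began 2.49 kb downstream of the annotated TSS and did not cover it. Of the 6644 genes with an H3K4me3 peak within 50 kb at stage 10.5, 80.2% had one over the TSS. No H3K27me3 peak was assigned to any of the 3 genes at any stage, in lists that held 75, 81 and 179 peaks and named 0.159%, 0.147% and 0.563% of genes.

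**Figure D3:**
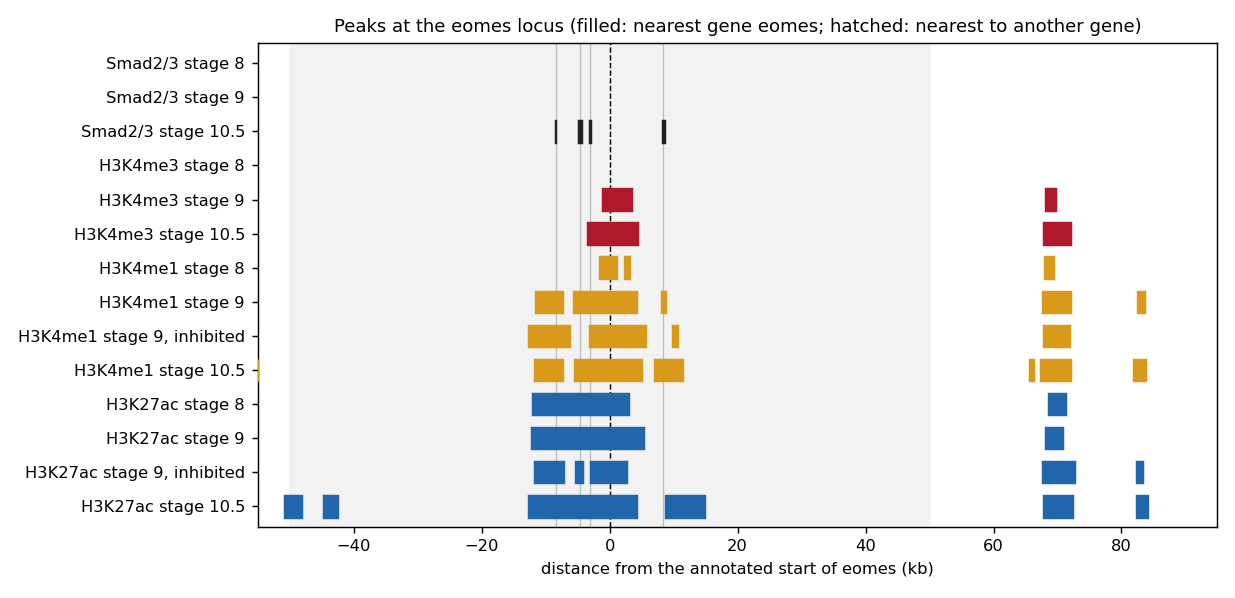
Peaks around eomes in each list, as distance from the annotated start in kb; boxes, lines and shading are as in the map of vegt. Peaks over the start are called for H3K27ac and H3K4me1 from stage 8 and for H3K4me3 from stage 9, and a second block of peaks lies about 70.1 kb downstream, outside the window.

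The values of eomes and t were set beside those of a group of 83 genes with a like time course, which includes both. It was defined after seeing the values as genes with at most 3 tags at stages 8 and 9 and at least 10 CPM at stage 10.5. Of these genes 38.6% had an H3K4me3 peak within 50 kb at stage 9, as eomes did and t did not. H3K27ac at stage 8 was present at 62.7% and H3K4me1 at stage 8 at 27.7%. A stage 10.5 Smad2/3 site was named for 45.8%, beside 5.32% of all genes. The lists in which a gene had a peak were the same for t and vegt, and eomes differed from both only by H3K4me3 at stage 9 and H3K4me1 at stage 8. The match of t and vegt rests on the stage 8 H3K27ac peak of t 44.5 kb upstream, with a score of 4. Within 10 kb, or at or above the median score, t had peaks in 8 lists and vegt in 9. The shares that follow hold for the 50 kb rule. The pattern of t and vegt was shared exactly by 58 of the other genes, and 4.85% of 8163 genes differed from it in at most 1 list; for eomes the figures were 99 genes and 12.5%.

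**Figure D4:**
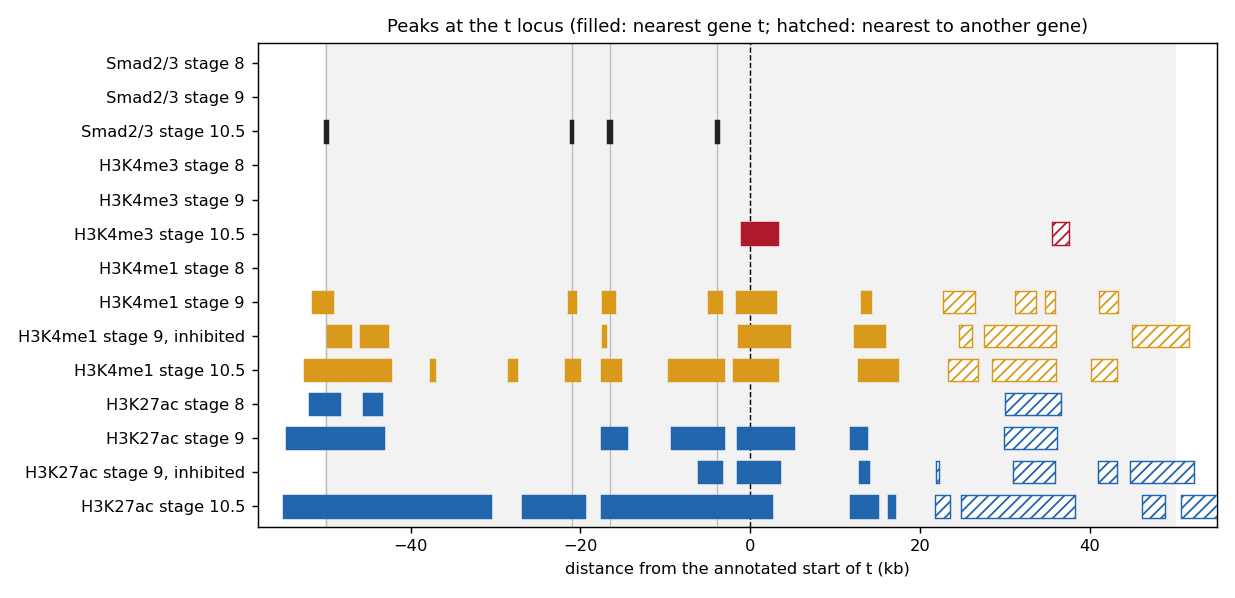
Peaks around t in each list, as distance from the annotated start in kb; boxes, lines and shading are as in the map of vegt. All 4 Smad2/3 sites lie upstream, and the peaks at the far left over the site at 49.97 kb are present at stage 9 in untreated embryos for both marks and in inhibited embryos for H3K4me1 only.

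Every one of the 12 Smad2/3 sites lay under H3K4me1 at stage 9, a stage before it was called, as did 73.9% of all 1024 stage 10.5 sites. None of the 12 did at stage 8, when 7.32% of all sites did, and all 12 did at stage 10.5, as did 95.7% of all. Some of the stage 9 H3K4me1 peaks were weak, with a list median score of 23. Those over the 4 sites of t scored 3 to 20, and that over the eomes site 8.41 kb downstream scored 13. The one over the t site 21.0 kb upstream ranked 25855 of 25975. H3K27ac covered 7 of the 12 at stage 8, 10 at stage 9 and 12 at stage 10.5, beside 48.5%, 66.8% and 92.8% of all sites. Sites that share a broad peak are not separate observations. At stage 8, 3 of the 7 lay in 1 peak of eomes and 3 in 1 peak of vegt. The sites without H3K27ac at stage 9 were that of eomes 8.41 kb downstream and that of t 21.0 kb upstream, and both also lacked it at stage 8. H3K4me3 covered 2 of the 12 at stage 10.5, the eomes site at 3.04 kb upstream and the vegt site at 3.92 kb downstream, and none earlier; 3.32%, 4.69% and 29.6% of all sites had it at stages 8, 9 and 10.5.

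In inhibited stage 9 embryos fewer of these sites lay under a peak. H3K4me1 covered 3 of the 12, against 12 in untreated stage 9 embryos, and H3K27ac covered 6, against 10. Among sites and peaks at or above their list medians, 9 sites remained. Of these, H3K4me1 covered 1 in inhibited and 5 in untreated embryos, and H3K27ac 2 and 7. All stage 10.5 sites of the list went from 73.9% to 58.3% for H3K4me1 and from 66.8% to 59.3% for H3K27ac. Of sites with the mark in untreated embryos, 74.9% of all and 3 of 12 here had it under inhibition for H3K4me1, and 76.5% of all and 6 of 10 for H3K27ac. For H3K27ac, 2 of the 12 sites lacked the mark in untreated embryos, and they lacked it under inhibition too. All 12 had H3K4me1 in untreated embryos, so none could have it only under inhibition. Over all 1024 sites, 84 had H3K27ac and 30 had H3K4me1 only under inhibition. The arms also differed in aligner and adapters, so treatment and processing cannot be told apart.

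By gene the values were as follows, from 4 sites each and with no test of a difference between genes. eomes kept H3K27ac at 3 of 3 sites and H3K4me1 at 2 of 4, losing it at 4.65 kb upstream and 8.41 kb downstream. t kept H3K27ac at 1 of 3 sites, that at 3.93 kb, and H3K4me1 at 1 of 4, that at 49.97 kb. vegt kept H3K27ac at 2 of 4 sites, those at 1.55 and 3.92 kb downstream, and H3K4me1 at 0 of 4. Those 2 sites and the one 0.468 kb upstream lay in 1 untreated stage 9 H3K4me1 peak, so they are not separate losses.

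Several of these losses were short gaps at a peak edge. Inhibited H3K27ac peaks ended 2 bp from the vegt site at 0.468 kb upstream and 17 bp from the site at 14.6 kb. The peak near the 14.6 kb site had a score of 1 and rank 16093 of 16105, so counting that site as marked rests on a weak call. An inhibited H3K4me1 peak lay 71 bp from the vegt site at 3.92 kb, 525 bp from that at 14.6 kb, 154 bp from the t site at 16.5 kb and 975 bp from the eomes site at 8.41 kb downstream. When a peak within 1 kb was allowed, a setting chosen after seeing the data, the sites with H3K27ac under inhibition rose from 6 to 8 and those with H3K4me1 from 3 to 7. With that gap eomes had H3K27ac at 3 and H3K4me1 at 3 of its 4 sites, t at 1 and 2, and vegt at 4 and 2. The gaps were wider at the far upstream site of t, 18.8 kb from the nearest inhibited H3K27ac peak, and at the promoter site of vegt, 4.61 kb from the nearest inhibited H3K4me1 peak.

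**Figure D5:**
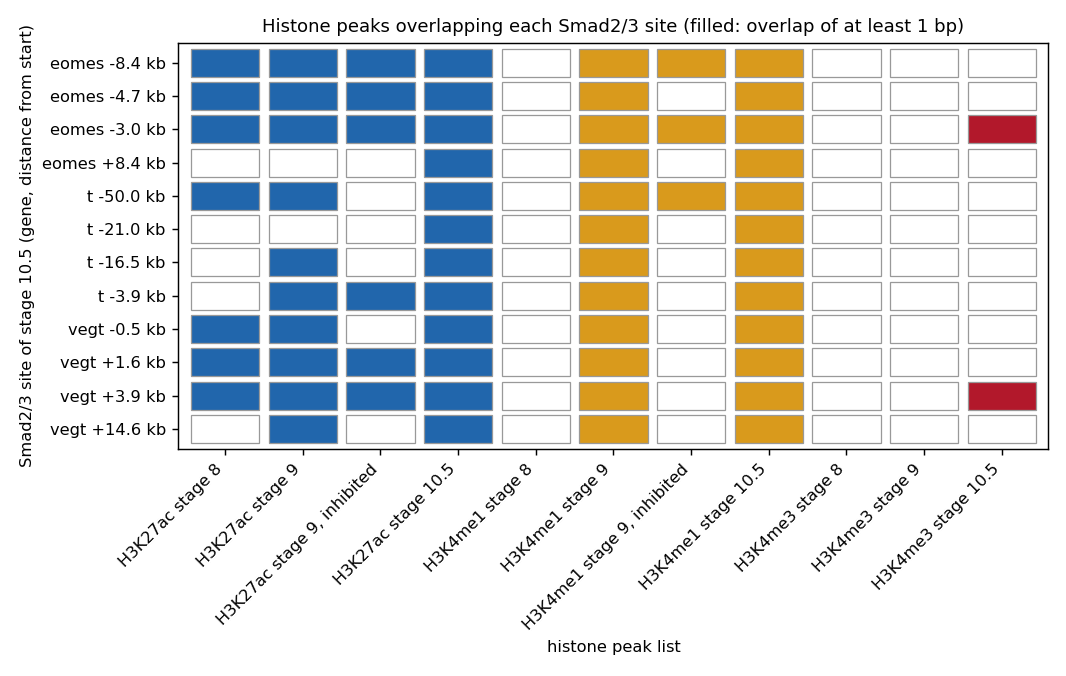
Overlap of each of the 12 stage 10.5 Smad2/3 sites (rows, with distance from the gene's start) with the peaks of each histone list (columns); filled cells overlap by at least 1 bp. H3K4me1 is filled at all 12 sites in untreated stage 9 embryos and at 3 in inhibited ones.

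Counted by peaks rather than by sites, the loci lost less H3K4me1, while the H3K27ac counts were close. An overlap of 1 bp is met more easily by a wide peak, so the shares of the whole lists are not like for like. Of the 9 untreated stage 9 H3K27ac peaks, 6 overlapped an inhibited peak, beside 52.9% of 11314 in the whole list. The 3 that did not were those of t at 48.9 and 16.0 kb upstream and that of vegt at 2.82 kb upstream. The single 17.6 kb peak of eomes overlapped 3 inhibited peaks over 67.4% of its length, and the peak over the vegt TSS was overlapped over 92.0%. The t peaks 6.23 kb upstream and 1.81 and 12.8 kb downstream were overlapped over 45.1%, 75.7% and 49.7%. The vegt peak 14.8 kb downstream was overlapped over 20.9%. Of the 11 untreated H3K4me1 peaks, 8 overlapped an inhibited one, beside 53.6% of 25975. All 3 of vegt did, but over 39.1%, 86.0% and 23.6% of their length, and its TSS, covered in untreated embryos, was not covered under inhibition, when 54.8% of all TSSs were. Those of eomes at 8.48 kb downstream and of t at 21.0 and 4.19 kb upstream did not overlap an inhibited peak.

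Each gene had 3 H3K27ac peaks under inhibition, when 65.8% of genes had one, and eomes had 3, t 5 and vegt 3 H3K4me1 peaks, when 74.6% did. Length behaved differently for the 2 marks. H3K27ac peaks summed to 17.6 kb in untreated and 11.8 kb in inhibited embryos for eomes, to 29.4 and 9.04 kb for t and to 17.8 and 11.5 kb for vegt, while the whole list went from 34.6 to 39.9 Mb. H3K4me1 peaks summed to 15.2 and 16.3 kb for eomes, 9.97 and 16.4 kb for t and 13.0 and 5.96 kb for vegt, while the whole list went from 59.0 to 49.5 Mb. The rise for t depends partly on the 50 kb limit. An untreated 2.48 kb peak centred 50.3 kb upstream is left out, while an overlapping inhibited 2.82 kb peak centred 48.4 kb upstream is counted. All 9 inhibited H3K27ac peaks overlapped an untreated peak. An inhibited H3K4me1 peak without an untreated counterpart lay 10.2 kb downstream of eomes and another 44.3 kb upstream of t.

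Genes linked to the 3 factors were read from lists chosen with earlier results of these data known. Of 26 endoderm genes downstream of VegT and Eomes, 8 were in the RNA table and 6 reached 10 CPM, each of them at stage 10.5 and not at stage 9. Their direction is therefore set by that minimum, and their values are given as a description. The Nodal antagonist gene cer1 went from 0 to 1637 tags, at least 453-fold higher. sox17b.1, an endoderm HMG-box factor, went from 3.75 to 173 CPM, 46.2-fold higher (31.1 to 71.6), and mix1, a homeobox factor of mesendoderm, from 10 to 560 tags, 46.4-fold higher (25.1 to 97.4). None of the list could be tested under inhibition because none reached 10 CPM. A stage 10.5 Smad2/3 site was named for 8 of 15 of these genes with any peak, beside 5.32% of all genes.

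Of 33 mesoderm genes of the Brachyury network, 19 were in the table and 15 reached 10 CPM at stage 9 or 10.5. For 12 of them this was at stage 10.5 alone, so they could not have been called lower. Of the other 3, which reached it at stage 9, 1 was at least 2-fold higher at stage 10.5, 1 lower and 1 neither. The posterior homeobox gene cdx2 had 2 tags at stage 9 and 1446 at stage 10.5, and the Wnt ligand gene wnt8a 1 and 651. hes7.1, a Hes-family repressor, was the one that was lower, from 941 to 147 CPM, 6.42-fold. In inhibited embryos 3 of 5 tested were at least 2-fold higher and none lower, beside 20.5% of labels higher. The 3 were wnt11 (5.71 to 26.0 CPM), the notochord homeobox gene not (35.9 to 91.1 CPM) and snai1 (8.56 to 20.6 CPM). wnt11 and snai1 reached 10 CPM only under inhibition, so they could not have been called lower. Of the 3 tested genes that also reached it in untreated embryos, 1 was higher, none lower and 2 neither. Of 28 list members with any peak, 18 had a stage 10.5 Smad2/3 site, again beside 5.32% of all genes.

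Signal and co-factor genes upstream of the T-box genes were already expressed at stage 8, with 11 of 11 in the table detected in every library. From stage 8 to 9, 1 of 10 was at least 2-fold higher, the Nodal co-receptor gene tdgf1 (70.2 to 154 CPM), and 6 were lower (5 with TMM), beside 7.29% of labels higher and 28.8% lower. smad2 went from 1179 CPM in untreated to 483 CPM in inhibited stage 9 embryos, a ratio of 0.409 (0.391 to 0.429), while 5 of the other genes, among them sox7, ctnnb1 and fgfr1, were at least 2-fold higher (4 with TMM), beside 20.5% of labels higher and 16.7% lower. A stage 10.5 Smad2/3 site was named for 5 of 12 with any peak. None of 15 other T-box genes was in the RNA table, and of the 6 with any peak, tbx2 and tbx3 had 1 stage 10.5 Smad2/3 site each. Among ectoderm genes, 7 of 10 had such a site. All of these counts stand beside 5.32% of all genes.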

How the data were processed

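The authors' processed files were taken as they stand, without realigning reads. The submitters' processing notes name BWA for untreated histone libraries, Bowtie for Smad2/3, input and Nodal-inhibited libraries, MACS2 for peak calling and HOMER for annotation, without versions or parameters. Per the labels, only the untreated histone libraries carried multiplexing adapters. The label of the untreated stage 9 H3K4me1 library says it was repeated in RG-pool3, without further detail. H3K4me1 at stage 10.5 was in a different multiplex pool from stages 8 and 9, and each H3K27me3 stage was in its own pool. Peak positions are on xenTro2, per the file headers. The deposited peak score served only to rank within a list; the GC content, deposited as a fraction, was turned into percent. Headers mark the stage 9 and 10.5 Smad2/3 lists as stricter, and the stage 9 H3K27ac list has a stage 9 header but peak names with a stage 8 prefix. The 3 input libraries were not analysed here.

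The RNA table holds deposited raw counts of tags in 46039 regions, 20406 without a gene name, found over all tracks jointly with strand ignored, per the file headers. Of its per-sample columns, 4 whose names end in r2 could be tied to no listed sample and stayed unused; they may be second replicates or runs, which is not stated. Alignment dates in the headers differ between stages 8 and 9, stage 10.5 and inhibited embryos; whether they mark batches is not stated. Tags were summed to 5944 gene labels and scaled to tags in named regions (CPM). Log2 ratios used a pseudocount of 1 CPM, and a label was called at 2-fold if its higher library reached 10 CPM. Folds have conditional binomial (Clopper-Pearson) intervals and levels Poisson intervals, both at 95%. A count of 0 was replaced by 3 tags, and 3 or fewer tags in both libraries gave no fold. Peaks overlapped at 1 bp or more. With 1 library per group no test was made. The scripts, checked on simulated data, ran in Python 3.11.15 with pandas 2.3.3 and scipy 1.17.1; edgeR 4.0.16 (TMM) and DESeq2 1.42.0 (median of ratios) gave alternative scalings only.

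Alternatives were other scalings, pseudocounts, minimums, windows, score limits and overlaps, and the region with most tags only; forward-oriented regions only and a 1 kb gap were added after seeing the data. The genes and lists (other T-box, endoderm, mesoderm, upstream signal, ectoderm, later cell types, maternal oocyte) were chosen with earlier results of these data known. At most the 3 largest rises and falls per list are named, with genes among the 3 nearest RNA profiles; some are not reported here. RefSeq (assembly UCB_Xtro_10.0) gave gene symbols only; no sequence was used here.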

Additional observations from a re-analysis of the deposited data

How the results depend on the processing

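No paired analysis was possible because each listed group held 1 library, so the groups shared fewer than 2 replicate numbers. No alternative turned the direction of a called ratio. Pseudocounts of 5 and 0.1 CPM gave log2 ratios of 4.01 and 9.56 for eomes at stage 10.5 over stage 9 and over stage 8, of 5.53 and 9.86 for t over stage 9 and of 5.57 and 11.19 over stage 8, since the lower library held at most 1 tag. For vegt, TMM and median-of-ratios scaling gave 1.28 and 1.25 at stage 10.5 over stage 9, 1.60 and 1.59 over stage 8, and 0.32 and 0.34 at stage 9 over stage 8; the region with most tags alone gave 1.75 and 1.71 for the first 2 comparisons. Scaling moved the count of labels higher at stage 9 than at stage 8 from 361 to 850 with TMM and 878 with the median of ratios, and of labels lower from 1428 to 716 and 698. Forward-oriented regions alone, added after seeing the data, left all 8 ratios within their counting intervals.

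Keeping only peaks at or above the median score of their list left 1 Smad2/3 site of eomes, and 10 kb in place of 50 kb left 1 of t. For the histone lists, 10 kb left 2 of 5 H3K4me1 peaks of t at stage 9 and 0 of 1 H3K27ac peak at stage 8, and the score limit left 1 and 0. With that score limit, t had 1 of 3 stage 9 H3K27ac peaks and 1 of 1 H3K4me1 peak overlapping an inhibited peak, eomes had 1 of 1 stage 8 H3K4me1 peak overlapping stage 9, and t had 0 stage 8 H3K27ac peaks left to compare, 3 of 3 H3K27ac and 1 of 1 H3K4me1 peaks of stage 9 overlapping stage 10.5. The limit left 9 Smad2/3 sites, of which 1 lay under H3K4me3 at stage 10.5, 5 under H3K4me1 at stage 9, 4 under H3K27ac at stage 8, 2 under inhibited H3K27ac and 1 under inhibited H3K4me1. A gap of 1 kb gave 4 of 12 sites with H3K4me3 at stage 10.5 and 7 with inhibited H3K4me1. Requiring an overlap of 50% of the shorter peak moved none of 28 overlap counts by over 1.5 times. The motif and protein comparisons planned for the 3 genes were not run, as no sequence was used here. Depth limits stages 8 and 9, where 3 tags correspond to 0.603 and 0.450 CPM.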

Other observations

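Beyond 50 kb from eomes a second block of peaks lay on scaffold 26, centred about 70.1 kb downstream of the TSS with eomes named as nearest gene. H3K27ac and H3K4me1 were called there at stages 8, 9 and 10.5 and in inhibited stage 9 embryos, and H3K4me3 at stages 9 and 10.5. Its H3K4me3 peak of stage 10.5, at 686876 to 691314, ranked 315 of 14549, ahead of the peak over the eomes TSS at rank 2613. A region without a gene label at 687950 to 688036, under these peaks, held 4, 26, 8 and 13 tags at stages 8, 9 and 10.5 and under inhibition. Another at 692889 to 692990 held 0, 1, 38 and 16 tags. No Smad2/3 site was called in the block. The gene named as nearest to it is the deposited annotation's choice, and no other link to eomes was tested.

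A run of unlabelled RNA regions lay upstream of t on scaffold 432. The one with most tags, at 213307 to 213526 and 79.3 kb upstream of the TSS, held 1 tag at stage 8, 5 at stage 9, 426 at stage 10.5 and 8 under inhibition, and 4 more between it and 82.6 kb upstream held 26 to 43 tags at stage 10.5.

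The nearest labelled gene downstream of vegt, the adaptor protein gene crkl, had a reverse-oriented region at 4651724 to 4652255 on scaffold 12 with 928 tags at stage 8, 520 at stage 9, 2335 at stage 10.5 and 368 under inhibition. These are 187, 78.1, 291 and 79.0 CPM, so this region was also highest at stage 10.5. Its order between untreated and inhibited stage 9 turned with the scaling, with 91.3 and 85.1 CPM under TMM and 93.3 and 82.4 CPM under the median of ratios. Of the other crkl regions within 100 kb, only that at 4651695 to 4652030 was also highest at stage 10.5, with 33.6 CPM beside 32.6 at stage 8. The rest were highest at stage 8 or under inhibition, such as that at 4659010 to 4659313 with 24.3 CPM at stage 8 and 9.59 at stage 10.5. The region with most tags therefore does not stand for the gene.

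No Smad2/3 site in any list named t2, the second Brachyury gene near t, as nearest gene, while 4 named t. This contrast depends only in part on the assignment rule. The t site 3.93 kb upstream also lies within 50 kb of the t2 start, which is 35.7 kb downstream of that of t. The t sites 16.5, 21.0 and 49.97 kb upstream lie farther than 50 kb from the t2 start. H3K4me3 was called for t2 in 1 peak at stage 9 and 3 at stage 10.5, and H3K27ac in 2 peaks at stage 8. One further stage 10.5 Smad2/3 site naming eomes lay 218.7 kb downstream of its TSS, at 837730 to 838028, with a score of 18.7.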
